A study of Macaca mulatta with 34 samples.

Results

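The nuclear genes for subunits of the mitochondrial respiratory chain and of ATP synthase were followed through the deep cerebellar nuclei (DCN) of rhesus macaques that had received gene therapy vectors. The members were chosen by gene symbol alone, as the genes whose names follow the subunit series of complex I (NDUFA, NDUFB, NDUFC, NDUFS and NDUFV), complex II (SDHA to SDHD), complex III (UQCR genes and CYC1), complex IV (lettered COX subunits) and ATP synthase, counted as complex V (ATP5 genes). The rule uses no measured value, although it was set with earlier results of these data known. Of 34847 gene identifiers counted in all 22 DCN libraries, 24009 carried a symbol and 70 were members: 30 of complex I, 4 of complex II, 6 of complex III, 15 of complex IV and 15 of complex V. NDUFA4 and NDUFA4L2 were placed with complex IV, where NDUFA4 protein resides. The subunits encoded by mitochondrial DNA and the genes NDUFAB1, COX7A2L, COX7B2 and UQCRHL were not analysed here.

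Complexes I and II take electrons from NADH and succinate and pass them to ubiquinone, complex III hands them to cytochrome c, and complex IV passes them to oxygen. Complexes I, III and IV pump protons across the inner mitochondrial membrane while they do so, and ATP synthase makes ATP from the returning protons. Neurons of the deep nuclei, which fire tonically and form the output of the cerebellum, draw most of their ATP from this chain.

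All animals were injected in the DCN under magnetic resonance guidance, and each DCN library came from an animal with its own identifier. In Study 1, 4 animals received vehicle and 6 received AAV.miS1, a recombinant AAV2/1 vector expressing an artificial microRNA against ATXN1. In Study 2, 3 animals each received empty capsid, intmiS1 (another configuration of the ATXN1 microRNA), miSCA7Stuffer (a microRNA aimed at ATXN7 with stuffer DNA) or StufferOnly (stuffer DNA as cargo). Study 1 sought the cause of toxicity after AAV.miS1, and Study 2 characterised responses to the other cargoes. Age, dose and interval after injection were not given in the sources used here.

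Gene counts ranged from 2049685 to 4810852 in Study 1, except for vehicle replicate 2 with 87741. They ranged from 20978241 to 39792653 in the Study 2 libraries counted with featureCounts and were 5169866 and 4858179 in the intmiS1 libraries counted with STAR. The target ATXN1 stood at 62.1 ± 14.6 CPM (counts-per-million, scaled by TMM, mean ± SD, n = 6) after AAV.miS1 and 96.6 ± 5.86 (n = 4) after vehicle, and ATXN7 at 31.1 ± 5.98 after miSCA7Stuffer and 34.7 ± 1.91 after empty capsid (n = 3 each). Vector reads stood at 1.64 RPM (scaled to library size) in miSCA7Stuffer replicate 1, against 349 and 257 in the other libraries of that group and 247.5 to 625.3 after StufferOnly. The intmiS1 libraries held 0.372 to 1.44 RPM. Vector reads were those of a single vector entry, named for miS1 and a stuffer. How much of the intmiS1 vector that entry covers was not given, so low values do not measure its amount. The ATXN1 level after intmiS1, 41.1 ± 11.3 CPM, overlapped that of empty capsid (52.3 ± 6.20 CPM, n = 3 each). Of the intmiS1 libraries, 2 were counted with STAR and the empty capsid libraries with featureCounts. The 16 neuron markers were present in the tissue as labelled, with summed levels of 2596 to 5189 CPM after vehicle and 3933 to 5327 after empty capsid. AAV.miS1 replicate 1 stood apart with 39.3 CPM and 0 counts of SLC17A6, the glutamate transporter of DCN projection neurons.

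Together the 70 genes supplied 3997, 4249 and 4189 CPM after empty capsid and 3512, 2894 and 2847 CPM after StufferOnly, so that every StufferOnly library was lower. The miSCA7Stuffer libraries held 3931, 2507 and 2800 CPM, of which the first, the library almost without vector reads, lay close to the empty capsid range. The intmiS1 libraries held 4592, 3719 and 3875 CPM. In Study 1 the sum was 3493, 2980, 3936 and 4830 CPM after vehicle and ranged from 2690 to 3871 CPM with a median of 3230 after AAV.miS1, and these groups overlapped. CPM depend on gene length, so levels are compared between libraries and not between genes, and levels of Study 1 and Study 2 come from different counting programs and are not compared.

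**Figure D1:**
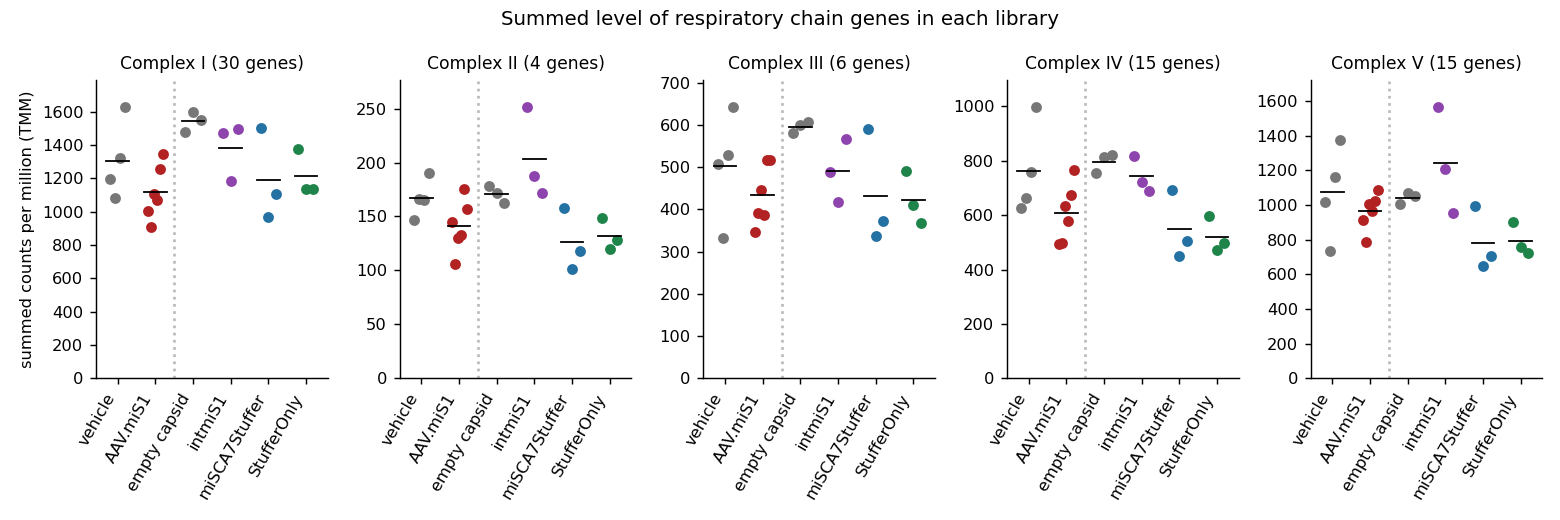
Summed level of the members of each complex, in TMM-scaled CPM on axes that start at 0, with 1 point per library and a bar at the group mean. The dotted line separates Study 1 from Study 2. All 3 StufferOnly libraries lay below all 3 empty capsid libraries in each of the 5 complexes, and AAV.miS1 overlapped vehicle in each.

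The sums were lower after StufferOnly in each of the 5 complexes, with no overlap between libraries. Complex I members summed to 1215 ± 141 CPM after StufferOnly and 1541 ± 61.4 after empty capsid. Complex III members summed to 423 ± 62.4 and 595 ± 13.5 CPM, and complex IV members to 521 ± 64.8 and 797 ± 35.0 CPM. Complex II (132 ± 14.8 and 171 ± 7.91 CPM) and complex V (793 ± 95.4 and 1042 ± 30.8 CPM) had the same order (mean ± SD, n = 3 each). Because TMM-scaled CPM are shares of a bulk library, fewer cells of a type and less RNA per cell cannot be told apart.

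In StufferOnly against empty capsid, 64 of the 69 members tested had a log2 fold change below 0, with a median of -0.43, while 48.6% of all genes tested were below 0 and their median was 0.02. By edgeR's quasi-likelihood test with Benjamini-Hochberg adjustment at 0.05 over all genes, 5 members fell and 2 rose, where 15.4% of 20882 genes passed (3.81% lower and 11.6% higher). Of those that rose, COX6A2 passed the filter on low counts only through libraries of the stuffer vectors. In 49 of the 69 members all 3 StufferOnly libraries lay below all 3 empty capsid libraries, against 22.2% of all genes, and in 3 all StufferOnly libraries lay above (26.8% of all genes). By complex, 29 of 30 complex I members, 4 of 4 of complex II, 6 of 6 of complex III, 12 of 14 of complex IV and 13 of 15 of complex V had a fold change below 0. The medians were -0.37, -0.43, -0.56, -0.56 and -0.37 in that order. COX8C, a testis-enriched isoform, was too low to be tested.

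**Figure D2:**
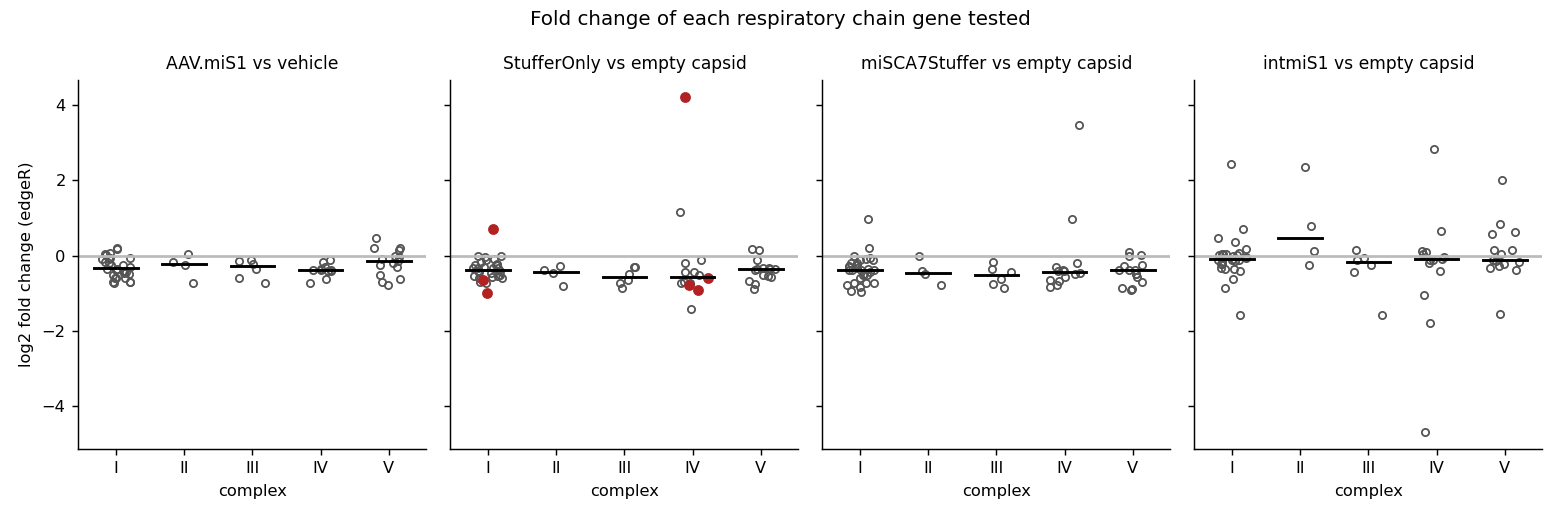
Log2 fold change of each member tested by complex (1 point per gene, spread sideways for legibility), in 4 comparisons, with a bar at the median of the complex and filled red points for genes past an adjusted p of 0.05. The points lie mostly below 0 for both stuffer vectors and for AAV.miS1, and 5 lower and 2 higher genes are filled in StufferOnly against empty capsid.

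Among complex I genes, NDUFA5 (ENSMMUG00000017321), an accessory subunit of the arm that takes up NADH, had the smallest p of any member. It measured 96.1, 101.2 and 95.3 CPM after empty capsid and 56.9, 45.4 and 45.2 CPM after StufferOnly. The groups were far apart relative to their spread, and NDUFA5 fell by 0.99 on the log2 scale (SE 0.17, adjusted p = 0.019). NDUFS4 (ENSMMUG00000004861), an accessory subunit of the same arm that is required for a stable complex I, measured 22.6, 22.6 and 20.9 CPM after empty capsid and 14.2, 12.6 and 15.4 CPM after StufferOnly. These groups did not overlap, and NDUFS4 fell by 0.65 (SE 0.18, adjusted p = 0.043). With no filter on low counts its adjusted p missed the threshold. The core subunits of the same arm stayed under the threshold: NDUFS1 had a log2 fold change of -0.54 (adjusted p = 0.077) and NDUFV1, which binds NADH, one of -0.33 (adjusted p = 0.39).

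In complex IV, 3 genes fell. NDUFA4 (ENSMMUG00000020894), named as a complex I subunit and later assigned to complex IV, measured 123.9, 140.5 and 147.3 CPM after empty capsid and 80.9, 60.3 and 76.2 CPM after StufferOnly. Its groups did not overlap, and it fell by 0.92 (SE 0.22, adjusted p = 0.027). COX7C (ENSMMUG00000040409), a small membrane subunit, measured 35.5, 36.5 and 39.3 CPM against 27.2, 18.6 and 19.4 CPM and fell by 0.77 (SE 0.19, adjusted p = 0.033). COX6A1 (ENSMMUG00000063609), the widely expressed isoform of subunit 6A, measured 192.6, 195.5 and 208.0 CPM against 147.7, 122.6 and 123.3 CPM and fell by 0.60 (SE 0.15, adjusted p = 0.034). In COX7C, COX6A1, NDUFA4 and NDUFA5, StufferOnly replicate 1 was the highest of its group and still lay below every empty capsid library.

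**Figure D3:**
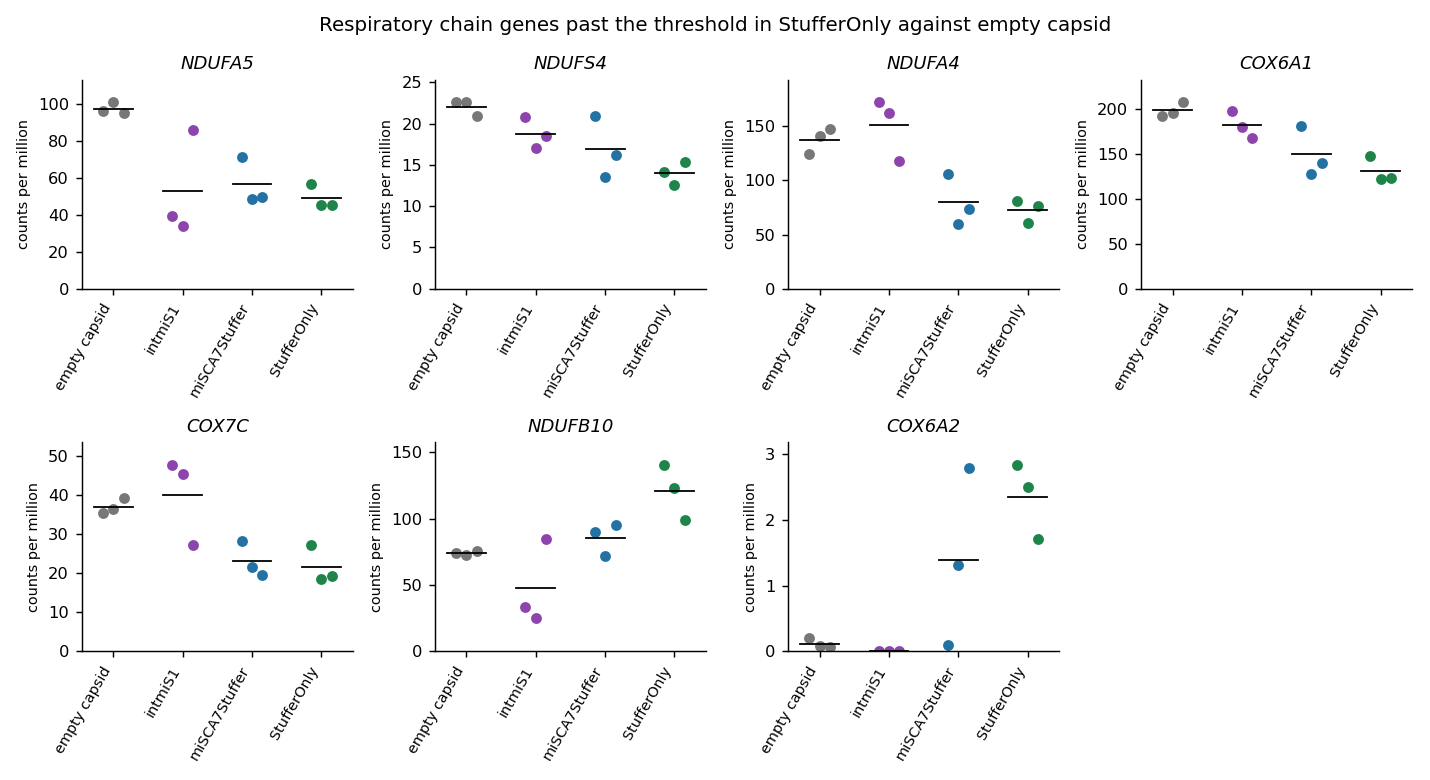
The 7 members past the threshold in StufferOnly against empty capsid, in TMM-scaled CPM in each Study 2 library, with a bar at the group mean. NDUFA5, NDUFS4, NDUFA4, COX6A1 and COX7C lie lower after StufferOnly, and NDUFB10 and COX6A2 lie higher. The low pair of intmiS1 points for NDUFA5 and NDUFB10 are the libraries counted with STAR.

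Both members that rose have a RefSeq neighbour within 1 kb, as do 47 of the 69 members matched to RefSeq. NDUFB10 (ENSMMUG00000057370), an accessory subunit of the membrane arm of complex I, measured 74.1, 72.7 and 75.4 CPM after empty capsid and 140.7, 123.3 and 99.1 CPM after StufferOnly, a rise of 0.71 (SE 0.16, adjusted p = 0.025). RPS2, a cytosolic ribosomal protein gene, lies within 1 kb of it in the RefSeq table of assembly T2T-MMU8v2.0. The RPS2 identifier with the higher Study 2 counts (ENSMMUG00000047277) measured 110.1 to 130.5 CPM after empty capsid and 241.5 to 323.8 CPM after StufferOnly. In the stranded STAR columns, 87.4% of the reads at NDUFB10 in Study 1 and 87.5% in the STAR intmiS1 libraries were in the column opposite to the one that held nearly all reads of most members. In the strand-specific counts of Study 1, NDUFB10 had a log2 fold change of -0.46 (SE 0.28, adjusted p = 0.30) after AAV.miS1. The part of RPS2 reads in the rise of NDUFB10 was not tested.

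COX6A2 (ENSMMUG00000058046), the heart and skeletal muscle isoform of subunit 6A, was near the limit of detection in controls. It had 8, 2 and 2 counts after empty capsid and 95, 54 and 55 counts after StufferOnly, or 204 against 12 in all. The ratio of pooled rates was 18.5, with an exact interval of 10.4 to 36.5 at 95% confidence that covers counting error only, and the edgeR log2 fold change was 4.23 (SE 1.04, adjusted p = 0.032). COX6A2 passed the filter on low counts only through libraries of the stuffer vectors. Its test and interval therefore rest on the level that let it in, and its call is no independent sign of a rise. The miSCA7Stuffer libraries had 3, 37 and 61 counts, the 3 being in the library almost without vector reads. The 3 intmiS1 libraries had 0 counts, and Study 1 libraries had 0 to 2 in the strand-specific column used. Over all Study 1 libraries that column held 4 reads at COX6A2 and the opposite column 23 (85.2%). Study 1 and StufferOnly counts of this gene are therefore not comparable. The part of opposite-strand reads, or of reads shared with other genes, in the StufferOnly counts was not tested. ITGAD, an integrin gene of leukocytes, lies within 1 kb of COX6A2 in the RefSeq table and was not analysed here.

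Complex II, III and V had no member past the threshold in this comparison. SDHC, a membrane anchor of succinate dehydrogenase, had the smallest p in complex II with 5.99, 6.93 and 7.27 CPM after empty capsid and 5.50, 3.62 and 5.41 CPM after StufferOnly (log2 fold change -0.47, adjusted p = 0.18). UQCRC2, a core subunit of complex III, measured 117.4, 114.6 and 121.1 CPM against 95.1, 57.7 and 72.3 CPM (log2 fold change -0.65, SE 0.21, adjusted p = 0.069). ATP5F1C, the gamma subunit of the ATP synthase rotor, measured 86.3, 92.1 and 92.7 CPM against 65.9, 59.2 and 59.7 CPM (log2 fold change -0.55, SE 0.18, adjusted p = 0.072). In each of these 3 genes every StufferOnly library was below every empty capsid library.

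The calls in single genes depended on single libraries. Without any 1 empty capsid library, or without StufferOnly replicate 2 or 3, 0 members passed edgeR's threshold, and 0 to 53 of all genes did. Without StufferOnly replicate 1, 8 members were called lower and 0 higher (12.1% of 21509 genes were called, 2.67% lower and 9.38% higher). With all libraries DESeq2 called 15 lower and 2 higher where it called 25.5% of all genes, 9.28% lower and 16.2% higher. The median over members stayed between -0.52 and -0.38 across these omissions.

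Markers of other cell types differed between these groups as well. The summed neuron markers were 3585, 1797 and 1723 CPM after StufferOnly against 3933 to 5327 CPM after empty capsid. Of 16 genes 0 passed edgeR's threshold, 3 had an unadjusted p under 0.05 and 15 were below 0 (48.6% of all genes). The number of all genes at an unadjusted p under 0.05 is not given here, so marker counts at that level are not set against it. Oligodendrocyte markers summed to 16010 to 18560 CPM against 27270 to 40590 CPM, and 6 of 8 identifiers fell, both of MOBP among them. Macrophage markers summed to 4912 to 7674 CPM against 604.2 to 886.9 CPM, and 4 of 5 rose. T cell markers rose in 3 of 4, microglia markers in 3 of 5 and endothelial markers in 2 of 4 tested, where 11.6% of all genes were called higher and 3.81% lower. CD3D, at 0 in 2 of the empty capsid libraries, passed the filter on low counts only through libraries of the stuffer vectors. Its call therefore rests on the level that let it in. The 6 astrocyte markers had a median of -0.82 with 0 past the threshold (2 at an unadjusted p under 0.05). The part of these cell type markers in the levels of the respiratory chain genes was not tested.

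**Figure D4:**
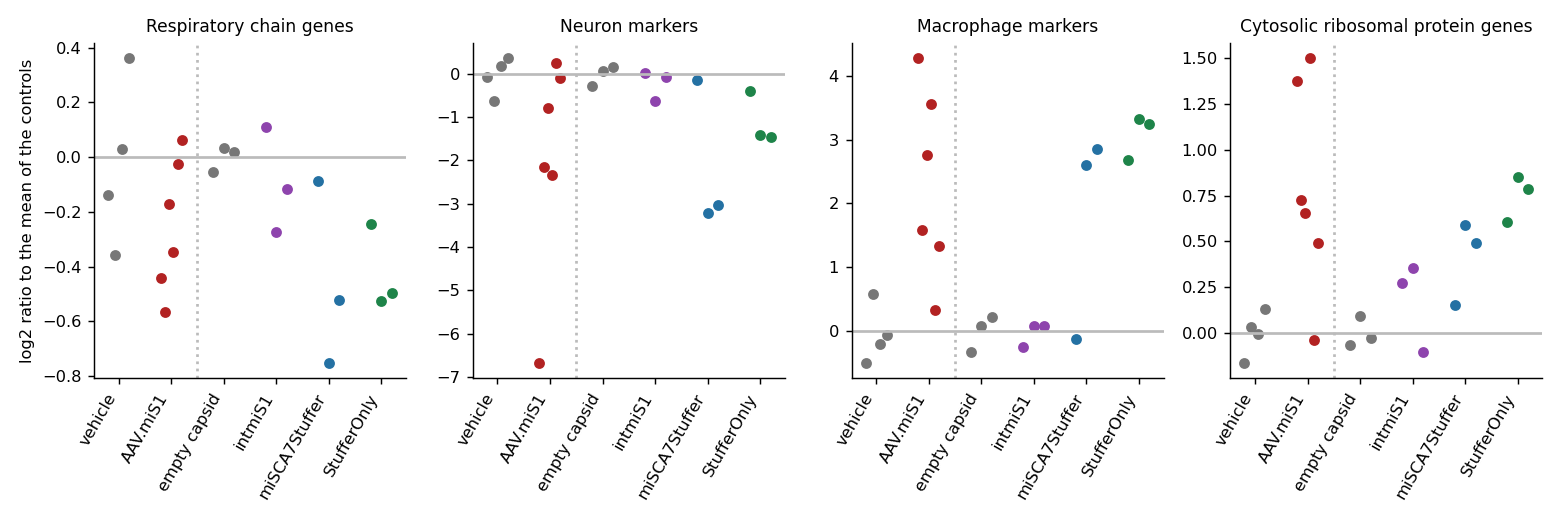
Level in each library relative to the control mean of its study, on a log2 scale. The first panel plots the median over the respiratory chain genes tested and the others plot summed marker or ribosomal gene levels, with the dotted line between the studies. The miSCA7Stuffer library near the controls in the first panel (-0.09) is also near them in the other panels, and the y axes differ between panels.

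The miSCA7Stuffer group was compared with the same empty capsid libraries, so its result shares those controls with the StufferOnly result. With all 3 libraries, 0 members passed in either direction by edgeR, where 0.00479% of all genes passed. An unadjusted p under 0.05 was found in 31 members (30 of them lower), and the matching number over all genes is not given here. DESeq2 called 10 lower and 1 higher (11.2% of all genes were called, 3.98% lower and 7.22% higher). The median log2 fold change over the 69 members tested was -0.40, with 62 below 0 (45.0% of all genes), and all 3 libraries were lower in 29 members (12.7% of all genes). The 3 libraries were unlike one another. Relative to the empty capsid mean, the median member stood at -0.09 in replicate 1, -0.75 in replicate 2 and -0.52 in replicate 3 on the log2 scale. In replicates 2 and 3, 62 and 58 of the 69 members lay below every empty capsid library, and in replicate 1, 29 did. The matching shares of all genes in single libraries were not computed, so these counts only compare the 3 libraries.

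Without miSCA7Stuffer replicate 1, 49 of 69 members fell and 1 rose, where 32.4% of 21539 genes were called, 16.8% lower and 15.6% higher. The member that rose was COX6A2, which passed the filter on low counts only through libraries of the stuffer vectors. Leaving out 1 library was planned for every library, and here it set aside the library with 1.64 RPM of vector reads. The median over members was then -0.68, and both remaining libraries were below every empty capsid library in 57 members (29.8% of all genes). The 49 genes came from all 5 complexes and included all 5 members that fell after StufferOnly, in a comparison with the same controls. NDUFA5 fell by 1.02 (SE 0.14, adjusted p = 0.00095) and NDUFA4 by 1.08 (SE 0.17, adjusted p = 0.0022). Complex III genes among them were UQCRB, which fell by 1.42 (SE 0.21, adjusted p = 0.0015), UQCRQ by 1.25 (SE 0.21, adjusted p = 0.0026), and CYC1, the cytochrome c1 gene, by 0.84 (SE 0.16, adjusted p = 0.0042). In complex V, ATP5MC1 fell by 1.49 (SE 0.22, adjusted p = 0.0015) and ATP5ME by 1.42 (SE 0.20, adjusted p = 0.0013). All of these values rest on 2 treated libraries. In the same 2 libraries the neuron markers summed to 513.9 and 579.8 CPM and the macrophage markers to 4636 and 5513 CPM, against 4276 and 699.3 CPM in replicate 1, and the part of these markers in the result was not tested.

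With all 3 libraries, the members of smallest p were NDUFA5, NDUFA4 and SDHB. NDUFA5 measured 71.3, 48.7 and 49.9 CPM after miSCA7Stuffer, all below the empty capsid libraries (log2 fold change -0.78, SE 0.17, adjusted p = 0.13). NDUFA4 measured 105.6, 59.3 and 73.8 CPM (log2 fold change -0.79, SE 0.21, adjusted p = 0.13). SDHB, the iron-sulfur subunit of complex II, measured 46.1, 33.4 and 41.5 CPM against 54.6 to 59.5 CPM (log2 fold change -0.50, SE 0.14, adjusted p = 0.13). In all 3 genes replicate 1 was the highest of its group.

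After AAV.miS1, 66 of the 70 members could be tested against vehicle, and COX6A2, COX6B2, COX8C and NDUFA4L2 were too low. By edgeR, 0 members passed in either direction, where 7.5% of 13383 genes passed, 0.284% lower and 7.22% higher. DESeq2 also called 0 members, where it called 1786 of all genes. In edgeR 10 members had an unadjusted p under 0.05, all lower, and the matching number over all genes is not given here. The log2 fold change was below 0 in 56 of 66 members, against 48.7% of all genes, with a median of -0.30 against 0.02. Members of complexes I to V had medians of -0.33, -0.21, -0.28, -0.38 and -0.15. All 6 AAV.miS1 libraries were below all 4 vehicle libraries in 2 members, ATP5ME and NDUFS6, against 2.88% of all genes. NDUFS6, an accessory subunit of complex I, measured 6.49, 10.4, 7.87 and 11.3 CPM after vehicle and 2.72 to 6.20 CPM after AAV.miS1 (log2 fold change -0.71, SE 0.30, adjusted p = 0.16).

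The members of smallest p were ATP5ME, NDUFS4 and NDUFA4. ATP5ME, subunit e of the membrane part of ATP synthase, measured 30.7, 31.2, 28.7 and 30.2 CPM after vehicle and 13.3 to 25.2 CPM, with a median of 18.3, after AAV.miS1. The groups did not overlap, with a log2 fold change of -0.70 (SE 0.22, adjusted p = 0.076). NDUFS4 measured 18.2, 20.8, 23.3 and 26.2 CPM after vehicle and 10.2 to 19.4 CPM, with a median of 12.2, after AAV.miS1 (log2 fold change -0.71, SE 0.24, adjusted p = 0.089). NDUFA4 measured 167.5, 290.8, 210.4 and 271.9 CPM after vehicle and 106.8 to 199.5 CPM, with a median of 151.4, after AAV.miS1 (log2 fold change -0.62, SE 0.21, adjusted p = 0.097). In NDUFS4 and NDUFA4 the groups overlapped through 1 vehicle library each. ATP5ME was the only member without overlap in the same direction both here and in StufferOnly against empty capsid. Taken singly, 2.88% and 22.2% of all genes were lower in every library in these comparisons. The share of all genes lower in both was not computed, so this count does not set ATP5ME apart. After empty capsid ATP5ME measured 31.1, 37.4 and 41.4 CPM and after StufferOnly 26.3, 18.4 and 20.1 CPM (log2 fold change -0.76, adjusted p = 0.15). Its 31.2 CPM in vehicle replicate 2 rests on 3 counts.

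Depth and single libraries limit the Study 1 values. Vehicle replicate 2 held a median of 3 counts per member, and without it the median log2 fold change was -0.35 with 58 members below 0. Vehicle replicate 4 had the highest levels, with a median member 0.36 above the vehicle mean on the log2 scale, and without it the median was -0.13 with 46 members below 0. Vehicle replicates 2 to 4 and AAV.miS1 replicates 5 and 6 had more than 15% unmapped reads. With that split as a covariate the median was -0.18, and it was -0.18 among the libraries above 15%. Below 15% there was 1 vehicle library (replicate 1) against 4 AAV.miS1 libraries, so the median of -0.25 there is set by that vehicle library, whose spread was taken from the AAV.miS1 group. With or without any of these libraries, 0 members passed, except that ATP5ME passed without AAV.miS1 replicate 5 (adjusted p = 0.026) and NDUFA5 without AAV.miS1 replicate 6 (adjusted p = 0.026).

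The AAV.miS1 libraries varied much more in cell type markers than in respiratory chain genes. Neuron markers summed to 39.3 to 4810 CPM (median 1615) and macrophage markers to 1189 to 18600 CPM (median 4667), against 2596 to 5189 and 667.0 to 1412 CPM after vehicle. The member sum in AAV.miS1 replicate 1, whose neuron markers were at 39.3 CPM, was 2900 CPM, against 3493, 3936 and 4830 CPM in vehicle replicates 1, 3 and 4 and 2980 CPM in the shallow vehicle replicate 2, which held 287 member counts. Replicate 5, with the highest neuron markers of its group at 4810 CPM, had 3648 CPM. Without AAV.miS1 replicate 1 the median log2 fold change over members was -0.25. Of 16 neuron markers 1 fell (CALB1), and 3 of 5 macrophage markers, 3 of 5 microglia markers and 1 of 3 T cell markers tested (CD2) rose. Of all genes, 0.284% were called lower and 7.22% higher. CD2, at 0 in vehicle replicates 1, 2 and 4, passed the filter on low counts only through AAV.miS1 libraries, so its call rests on the level that let it in. Oligodendrocyte markers summed to 11700 to 27590 CPM against 25540 to 37260 CPM after vehicle, with 8 of 8 below 0, 5 at an unadjusted p under 0.05 and 0 past edgeR's threshold. Of 6 astrocyte and 4 endothelial markers 0 passed, with 0 and 2 at an unadjusted p under 0.05. The number of all genes at an unadjusted p under 0.05 is not given here, so marker counts at that level are not set against it. The part of these markers in the member levels was not tested.

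After intmiS1 no gene passed against empty capsid by edgeR (0.0% of 21501), although 1831 genes and 8 members had an unadjusted p under 0.05, and DESeq2 called 52 genes, 4 of them members and higher. The median over 69 members was -0.10, with 42 below 0 (49.5% of all genes), and all 3 intmiS1 libraries were lower in 11 members (10.7% of all genes). Complexes I, III, IV and V had medians of -0.08, -0.17, -0.10 and -0.13, and complex II one of 0.46. The 3 members of smallest p, each with an adjusted p of 0.58, differed within the group between counting programs. SDHC measured 49.0, 49.0 and 6.01 CPM in the intmiS1 libraries, the last being the one counted with featureCounts, and 5.99 to 7.27 CPM after empty capsid. ATP5F1B, the catalytic beta subunit of ATP synthase, measured 447.9, 347.0 and 74.9 CPM against 70.9 to 73.5 CPM, and COX7A2 26.1, 23.2 and 1.79 CPM against 1.43 to 3.12 CPM. In all 3 genes the featureCounts library lay in or just above the empty capsid range and the STAR libraries far above it.

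Among the 67 members over 1 CPM in the featureCounts intmiS1 library, the STAR mean was more than 2 times the featureCounts value in 6, under 0.5 times in 7, and within 2-fold in 54. Of all genes over 1 CPM, 2.17% were over 2 times and 9.54% under 0.5 times. NDUFV2, a subunit of the NADH-oxidising module, had 52.7 CPM by STAR and 5.13 CPM by featureCounts, and SDHD and ATP5MJ were also higher by STAR. CYC1, COX5B and ATP5PF had 0 counts in the unstranded STAR column of both libraries, while the stranded column for their own strand held 1126, 434 and 392 reads in all. NDUFA2 had 10 unstranded and 413 stranded reads. In Study 1 the unstranded column likewise held 0 reads for CYC1 where the stranded column held 2760. Of these low genes, ATP5PF, NDUFA2 and NDUFA4L2 have a named gene within 1 kb in the RefSeq table (GABPA, IK and SHMT2 among them), CYC1 has LOC144330910 alone, and COX5B has none. With only featureCounts libraries the median over members was -0.12 and 0 passed, with 1 intmiS1 library whose spread was taken from the other groups. Without that library, 7 members were called lower and 6 higher (8.35% of 22173 genes were called, 7.05% lower and 1.3% higher), the lower ones led by NDUFA2, ATP5PF, CYC1 and COX5B and the higher ones by SDHC, NDUFV2, COX7A2 and ATP5F1B.

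**Figure D5:**
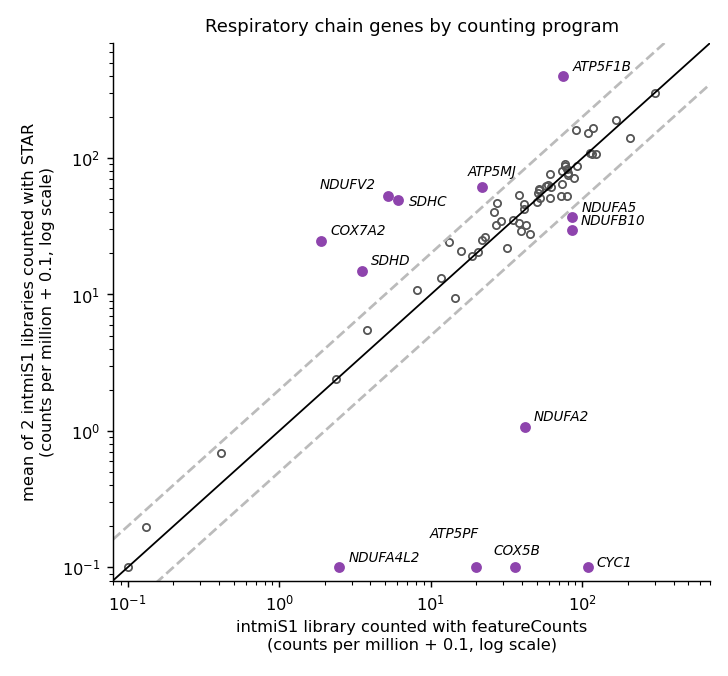
Members in the intmiS1 libraries by counting program, as the mean of the 2 libraries counted with STAR against the library counted with featureCounts, both as CPM plus 0.1 on log axes. The solid line marks equality, the dashed lines 2-fold differences, and filled points the 13 members beyond them. CYC1, COX5B, ATP5PF and NDUFA4L2 sit on the lower edge with 0 STAR counts.

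Both stuffer vectors were then compared with each other. By edgeR 0 genes passed in miSCA7Stuffer against StufferOnly (0.0% of 20882), with 2117 genes and 2 members at an unadjusted p under 0.05, and DESeq2 called 476 genes and 0 members. The median over members was -0.02 and it was -0.17 without miSCA7Stuffer replicate 1. NDUFB10, at 89.9, 72.1 and 95.6 CPM after miSCA7Stuffer, was below all StufferOnly libraries (log2 fold change -0.49, SE 0.16, adjusted p = 0.36). NDUFA1, a small membrane-arm subunit, measured 17.5, 13.8 and 8.96 CPM against 2.87, 3.44 and 8.70 CPM, but empty capsid libraries themselves ranged from 3.62 to 13.3 CPM (log2 fold change 1.42, SE 0.62, adjusted p = 0.49). SDHD, the other membrane anchor of complex II, measured 5.77, 6.44 and 6.49 CPM against 3.14, 2.14 and 5.38 CPM (log2 fold change 0.81, SE 0.38, adjusted p = 0.53).

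The AAV.miS1 effect in Study 1 was set against the StufferOnly effect in Study 2 in 1 model in which each vector was related to its own control. By edgeR 0 of 16275 genes differed (0.0%), with 473 genes and 2 members at an unadjusted p under 0.05, and DESeq2 called 7 genes and 0 members. The difference, AAV.miS1 effect minus StufferOnly effect, had a median of 0.16 over 68 members and 0.07 over all genes, with 11 members below 0 (41.1% of all genes). The members of smallest p were NDUFB10 at -1.15 (approximate 95% interval -1.93 to -0.37), ATP5MG, subunit g of ATP synthase, at 0.59 (0.02 to 1.16), and COX8A at 0.63 (-0.02 to 1.28), each with an adjusted p of 1.0. At NDUFB10 the Study 1 counts left out the opposite strand, which held 87.4% of its reads. The Study 2 counts credited reads that overlapped several genes to each of them. A difference between the vectors in NDUFB10 therefore cannot be told apart from a difference in counting. For NDUFA5 the difference between effects was 0.29 (-0.49 to 1.07) and for NDUFA4 0.34 (-0.37 to 1.04).

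Isoform pairs did not all follow 1 direction. ATP5MC1, ATP5MC2 and ATP5MC3 encode the same mature c subunit of the ATP synthase ring with different import signals. ATP5MC3 measured 93.5, 89.9 and 82.5 CPM after empty capsid and 64.3, 34.7 and 44.5 CPM after StufferOnly (log2 fold change -0.89, SE 0.29, adjusted p = 0.072). ATP5MC1 had a log2 fold change of -0.66 (SE 0.34, adjusted p = 0.22). ATP5MC2 measured 92.3, 91.2 and 93.4 CPM against 106.2, 112.2 and 94.2 CPM, so that all StufferOnly libraries were higher (log2 fold change 0.17, SE 0.11, adjusted p = 0.29). After AAV.miS1 the log2 fold changes were -0.79 for ATP5MC3, -0.62 for ATP5MC1 and 0.21 for ATP5MC2 (adjusted p = 0.13, 0.22 and 0.39), with groups that overlapped in all 3. The difference between these isoforms was not tested.

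In the other isoform sets no member passed except those already named. COX7A1, the muscle isoform, and COX7A2, the widely expressed isoform, had log2 fold changes of -0.13 and -0.52 after StufferOnly and -0.38 and -0.36 after AAV.miS1. COX6B1 had -0.43 and -0.37, COX7B -0.74 and -0.40, COX8A -0.74 and -0.13, and UQCRH, the hinge subunit of complex III, -0.29 and -0.13 in the same order. COX6B2, a testis isoform, was under 1 CPM in all 22 libraries and had 1.16 (adjusted p = 0.13) after StufferOnly. NDUFA4L2, which is induced by hypoxia in other tissues, measured 1.51, 2.48 and 2.52 CPM after empty capsid and 1.29, 0.74 and 0.40 CPM after StufferOnly (log2 fold change -1.41, SE 0.79, adjusted p = 0.25). ATP5IF1, the inhibitor of ATP synthase, had -0.34 after StufferOnly and 0.15 after AAV.miS1 (adjusted p = 0.27 and 0.88).

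The subunits of succinate dehydrogenase, which also works in the citric acid cycle, had no member past the threshold after StufferOnly or AAV.miS1. SDHA, the flavoprotein, measured 111.4, 97.2 and 93.5 CPM after empty capsid and 91.7, 69.3 and 70.2 CPM after StufferOnly (log2 fold change -0.39, adjusted p = 0.25), and had -0.24 after AAV.miS1. SDHB had -0.28 and -0.18. SDHC had 0.05 after AAV.miS1, and vehicle replicate 2 had 0 counts of it, which at that depth allows up to 31.15 CPM. SDHD had -0.81 and -0.73, with 9.09, 41.5, 15.2 and 6.96 CPM after vehicle, where the 41.5 was in the shallow library. UQCRQ, a small complex III subunit, measured 27.3, 31.2, 31.2 and 58.7 CPM after vehicle and 21.95 to 36.3 CPM after AAV.miS1 (log2 fold change -0.60, SE 0.25, adjusted p = 0.16).

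Genes around the chain were counted from lists of related functions. Of all genes, 3.81% were called lower and 11.6% higher after StufferOnly, and 0.284% lower and 7.22% higher after AAV.miS1. Of 47 assembly factors tested after StufferOnly 0 passed, with 35 below 0 and a median of -0.15, and 0 of 43 passed after AAV.miS1, with a median of -0.11. CYCS, which encodes cytochrome c, the carrier between complexes III and IV, measured 58.1 ± 11.5 CPM after StufferOnly and 120.3 ± 6.45 CPM after empty capsid and fell by 1.05 (SE 0.24, adjusted p = 0.025). Of 19 genes of the citric acid cycle and pyruvate entry, 4 fell after StufferOnly (MPC1, a subunit of the mitochondrial pyruvate carrier, by 0.54, and PDHB and PDHX of pyruvate dehydrogenase by 0.61 and 0.53 among them) and 0 rose, with a median of -0.29. After AAV.miS1, 0 of these 19 passed, with a median of -0.28. Of 18 glycolysis identifiers after StufferOnly, an identifier of LDHB, which has another in the list, fell by 1.203. HK2 and HK3 rose by 0.98 and 1.04, and the median was -0.44. After AAV.miS1 HK2 alone passed of 17 tested, with a rise of 1.71.

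Some mitochondrial genes rose, where 11.6% of all genes were called higher after StufferOnly and 7.22% after AAV.miS1. PPARGC1B and PPRC1, coactivators of mitochondrial gene expression, rose by 0.97 (SE 0.19, adjusted p = 0.020) and 0.93 (SE 0.22, adjusted p = 0.027) after StufferOnly. They were the 2 called of 15 regulators of mitochondrial biogenesis, a share near that of all genes, and the median of the 15 was -0.02. Of 10 antioxidant enzymes and uncoupling genes, 5 rose after StufferOnly and 3 after AAV.miS1. UCP2, an inner membrane carrier abundant in macrophages, rose by 3.37 and 3.58, and GPX1, a glutathione peroxidase, by 3.76 and 3.88 in that order. Of 70 mitochondrial ribosomal protein genes after StufferOnly, 2 fell and 1 rose with a median of -0.15, and 0 of 67 passed after AAV.miS1 with a median of -0.09. Cytosolic ribosomal protein genes had medians on the other side of 0. After StufferOnly 35 of 79 rose and 1 fell (median 0.66), where 11.6% of all genes were called higher and 3.81% lower. After AAV.miS1 4 of 72 rose (median 0.90), a share below the 7.22% of all genes called higher. The summed level of the cytosolic ribosomal protein genes was 5964, 7080 and 6762 CPM after StufferOnly and 3750, 4180 and 3843 CPM after empty capsid, so the groups lay apart in the direction opposite to the respiratory chain sum.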

How the data were processed

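Total RNA from TRIzol extracts was made into directional NEBNext Ultra II libraries after ribosomal RNA depletion with reagents for human, mouse and rat, per the labels' protocols. The deposited values are read counts per gene. STAR 2.6.0c and DESeq2 are named in the submitters' processing notes. Not given in the sources used here were the genome build and the annotation. Counts as deposited came from the reverse-strand STAR column in Study 1, the unstranded STAR column for intmiS1 replicates 1 and 2, and featureCounts for the other Study 2 libraries, which per the file headers assigned a read that overlapped several genes to each of them. Of the reads in the STAR output that were neither unmapped nor multimapping, 53.5% to 67.3% were assigned to no single gene. These reads, and the unmapped and multimapping ones, stayed out of library sizes.

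Counts were filtered with edgeR's filterByExpr (minimum count 10, minimum total 15), scaled by TMM and tested with the quasi-likelihood F test in edgeR 4.0.16 (R 4.3.3, limma 3.58.1). P-values were adjusted by Benjamini-Hochberg over all genes tested, with a threshold of 0.05. Fold changes used a prior count of 0.125, and each SE was derived from the F statistic and is approximate. The comparisons among empty capsid, StufferOnly and miSCA7Stuffer shared 1 fit of 9 libraries, the intmiS1 comparison used all 12 Study 2 libraries, and Study 1 was fitted alone. Intervals of the difference between effects used the t distribution with the residual degrees of freedom. Alternatives were DESeq2 1.42.0, another scaling, no filter, other STAR columns, a split or covariate for unmapped reads or counting program, a replicate block, and each library left out. Tables and plots were made with Python 3.11.15, pandas 2.3.3 and matplotlib 3.10.9.

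The members and gene lists were chosen with earlier results of these data known. Genes named with values were the called members (or the 3 of smallest p where fewer than 3 were called), the member of smallest p in each complex for AAV.miS1 and StufferOnly, succinate dehydrogenase, the isoform sets, and members whose groups did not overlap in the same direction for both vectors. NDUFS1, NDUFV1, NDUFS6, the members called without miSCA7Stuffer replicate 1 or intmiS1 replicate 3 and the members that differed between counting programs were chosen after their values were seen. A further part of the rule, the highest level per kilobase, was not applied because gene lengths of the build counted on were not used here. Same-numbered miSCA7Stuffer and StufferOnly libraries deviated together (correlations 0.52, 0.234 and 0.341 over genes). Correlations of differently numbered libraries are not given, so these values do not show that the libraries were pairs. The labels give no pairs, and the main fits used none. As an alternative, a block on the replicate number left 0 genes called in that comparison. On simulated data, 2-fold changes were recovered in 10.4% of cases for AAV.miS1 (13124 genes) and 5.1% for StufferOnly (20367 genes), and 4-fold changes in 74.5% and 62.2%.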

Additional observations from a re-analysis of the deposited data

Results flagged for a closer look

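UQCRQ, a small subunit of complex III, had 1 library far from the others of its group in both arms of Study 1. Vehicle replicate 4 measured 58.7 CPM, against 27.3 to 31.2 CPM in the other vehicle libraries, and AAV.miS1 replicate 6 measured 36.3 CPM, against 21.95 to 24.5 CPM in the other AAV.miS1 libraries. These were 2 of 50 groups of values looked at, and chance alone marks about 1 group in 20.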

How the results depend on the processing

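The median over members kept its sign under every alternative for AAV.miS1 (-0.37 to -0.13 with 1 library left out), StufferOnly (-0.52 to -0.38), miSCA7Stuffer (-0.68 to -0.29) and intmiS1 (-0.18 to -0.02), whereas for miSCA7Stuffer against StufferOnly it ranged from -0.17 to 0.11. Counts moved more, and causes were not tested. DESeq2 called 1786 genes for AAV.miS1, 5329 for StufferOnly with 15 members lower, 2339 for miSCA7Stuffer with 10 members lower and 1 higher, 52 for intmiS1 with 4 members higher, 476 for miSCA7Stuffer against StufferOnly, and 7 for the difference between effects. For AAV.miS1 the unmapped-read covariate left 148 genes, libraries over 15% unmapped 123 and those under 15%, with vehicle replicate 1 as their only control, 0. With no filter 1 gene was called between the stuffer vectors. With 1 library left out, AAV.miS1 gave 0 to 2300 genes and 0 to 1 member lower, StufferOnly 0 to 2593 genes, 0 to 8 members lower and 0 higher, miSCA7Stuffer 0 to 6983 genes, 0 to 49 lower and 0 to 1 higher, intmiS1 0 to 1852 genes, 0 to 7 lower and 0 to 6 higher, and miSCA7Stuffer against StufferOnly 0 to 343 genes.

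With the replicate number as a block, 10 members were lower and 1 higher after StufferOnly (3299 genes), although same-numbered StufferOnly and empty capsid libraries did not deviate together (correlations -0.099 to 0.062). The block changed no other member count. Single genes changed sign after AAV.miS1 in libraries over 15% unmapped (SDHA 0.013, COX7A2 0.45, ATP5MC2 -0.051, ATP5IF1 -0.061), in those under 15%, where 1 vehicle library sets the values (SDHB 0.077, SDHC -0.33, COX7A1 1.31, COX7B 0.73, COX8A 0.23), with the covariate (SDHC -0.014, COX8A 0.005), without vehicle replicate 2 (SDHC -0.049) and without vehicle replicate 4 (SDHC -0.048, COX8A 0.109). With each library left out in turn, SDHC ranged from -0.049 to 0.226 and COX8A from -0.263 to 0.109. COX7A1 changed sign without StufferOnly replicate 2 (0.01). After intmiS1, SDHC and COX7A2 stood at -0.16 and -0.39 both with the counting program as covariate and with featureCounts libraries only. A median of 3 counts per member limits vehicle replicate 2.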
